A study of Mus musculus with 6 samples.

Results

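The ADAMTS-like proteins and their closest ADAMTS relatives were followed across fibroblasts with and without the Delta9 allele of Lmna. Lmna encodes lamins A and C, filament proteins that line the inside of the nucleus. The family was chosen by name around Adamtsl3, which was selected on its lower value in Delta9 than in wild type (WT) in the comparison of all genes. The difference between Delta9 and WT is therefore given for every member as a description, with no test. Of 8 listed members, 7 were measured among the 18193 named genes: Adamtsl1, Adamtsl2, Adamtsl3, Adamtsl4, Adamtsl5, Adamts10 and Papln. Adamts17 was not analysed here. Where a gene had several probe sets, the one with the highest mean over the arrays stood for it.

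The comparison rests on 3 Delta9 samples and 3 WT samples of primary mouse fibroblasts, with 1 Affymetrix array per sample. The labels give the strain as C57bl6X129S3/J and the cells as adult, with no body site, and the series text calls them post-natal. Whether the Delta9 lines carried 1 or both altered copies is not given there. The lines came from siblings, were at passage 3 and had been without serum for 72 hours. The replicates are called independent, but the number of animals is not given, so any p-value measures the spread between these samples. Lmna itself was lower in Delta9 on 4 of its 5 probe sets. On 1457670_s_at, the one that differed most, it read 8.65, 8.95 and 9.38 in WT and 5.72, 5.68 and 5.33 in Delta9. On the brightest, 1421654_a_at, the difference was -1.96 (SE 0.28, adjusted p 0.0899, limma). The probe set that was not lower, 1452212_at, differed by 0.22 (SE 0.16). The position of these probe sets against the altered part of Lmna was not determined, and one outside it would not check the genotype.

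ADAMTS proteins are secreted metalloproteases that end in a series of thrombospondin type repeats. The ADAMTS-like proteins have the repeats but lack the protease domain, and act in the extracellular matrix without cutting it. Several members of both kinds, among them ADAMTSL2, ADAMTSL4, ADAMTSL5, ADAMTS10 and ADAMTS17, bind fibrillin microfibrils, the thin filaments that carry elastic fibres and store latent TGF-beta. Inherited loss of ADAMTSL2, ADAMTS10 or ADAMTS17 gives short stature with stiff joints and thick skin, and loss of ADAMTSL4 a displaced lens.

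Adamtsl3, also known as punctin 2, was the member with the largest difference. Its probe set read 7.75, 7.82 and 7.79 in WT replicates 1, 2 and 3, and 5.80, 6.10 and 6.35 in Delta9 replicates 1, 2 and 3 (all levels are log2 expression). The WT samples lay almost on top of each other, the Delta9 samples were spread more widely, and the groups did not overlap. The means were 7.79 ± 0.03 in WT and 6.08 ± 0.27 in Delta9 (SD, n = 3), a difference of -1.71 (SE 0.17), or 3.26-fold lower. This was the difference that singled the gene out. In RNA of a whole culture, fewer cells of a type and less RNA per cell cannot be told apart. Adamtsl3 has 1 probe set in the table, so no second one was there to set beside it.

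The size of the Adamtsl3 difference changed little with the arrays used. It ran from -1.86 to -1.57 over 17 alternatives, among them leaving out each sample in turn. Not all of these could move it. With 1 probe set and blocks balanced over the groups, the changes of probe set, variance model, block or gene filter had to return -1.71. Of all genes, 0.0605% had an adjusted p under 0.05 (limma, 11 of 18193), and of the 7 members 1 did, which the choice of Adamtsl3 fixes. That call held in 10 of the 17 alternatives. It was lost when Delta9 replicate 1, Delta9 replicate 2, WT replicate 1, WT replicate 2 or WT replicate 3 was left out, with the replicate number as a block and with the macrophage marker mean as a covariate. Delta9 replicate 3 and WT replicate 1 were the arrays with the lowest signal of the poly-A spike-in, a control RNA added before labelling, and between them alone the difference was -1.40. With the macrophage covariate the difference itself was -1.74 (SE 0.21).

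**Figure D1:**
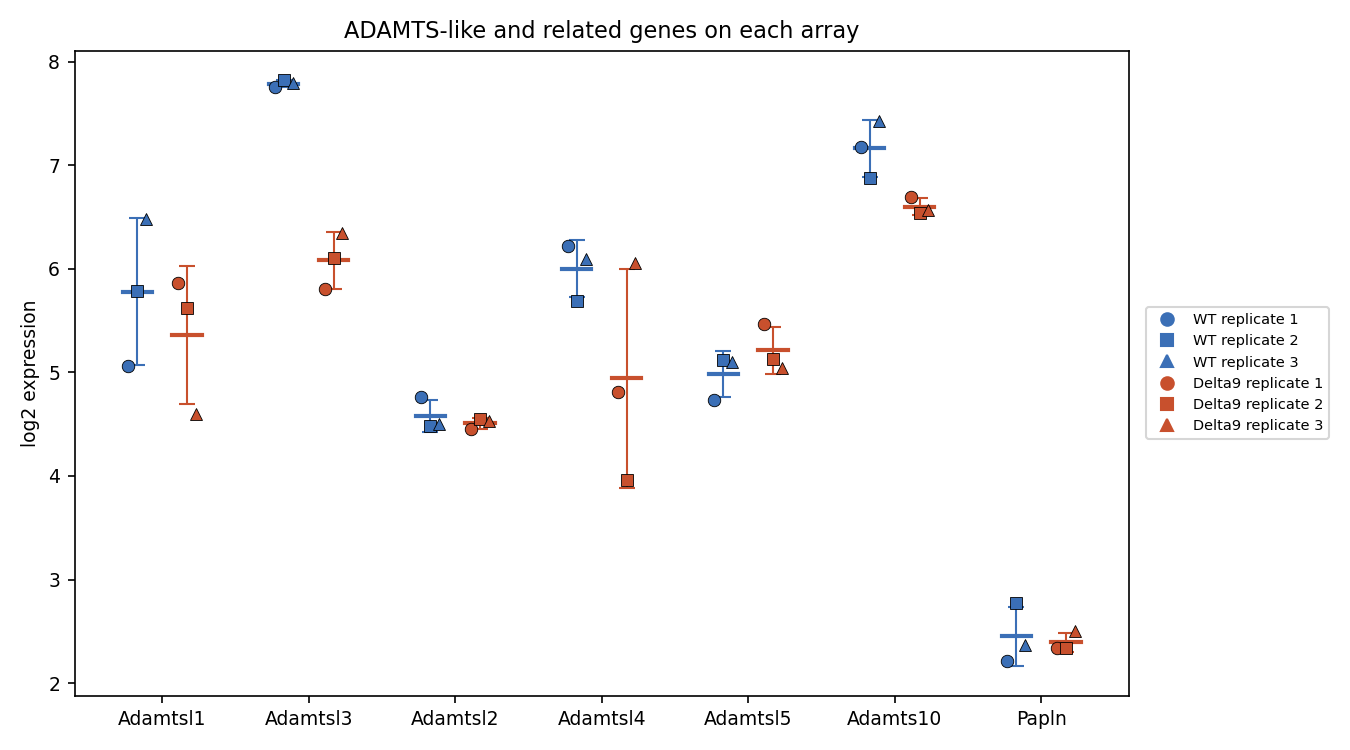
Log2 expression (vertical axis) of the 7 measured genes on each of the 6 arrays, with 1 point per sample; thick lines are group means and bars are the SD of 3 samples. The Adamtsl3 points of WT lie at 7.75 to 7.82 and those of Delta9 at 5.80 to 6.35; Adamtsl4 in Delta9 is the most scattered group. Levels of different genes come from different probe sets and are not comparable with each other.

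Adamtsl1, or punctin 1, belongs with Adamtsl3 to the larger members of the family, and it differed far less. Its brightest probe set, 1442063_at, read 5.06, 5.79 and 6.48 in WT and 5.86, 5.62 and 4.60 in Delta9. The groups overlapped across most of their range. The difference was -0.42 (SE 0.44), no larger than its error. It turned on single arrays, at -0.03 without Delta9 replicate 3, -0.06 without WT replicate 3 and -0.77 without WT replicate 1. Both dimmer probe sets were higher in Delta9, by 0.12 (SE 0.22) on 1437429_at and by 0.21 (SE 0.41) on 1430313_at.

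What all 3 Adamtsl1 probe sets shared was a low value on the same pair of arrays. Delta9 replicate 3 and WT replicate 1 were the lowest samples on each, at 4.60 and 5.06 on 1442063_at, 4.99 and 5.24 on 1437429_at and 4.48 and 4.80 on 1430313_at. These are also the arrays with the lowest poly-A spike-in signal, at 5.32 and 4.92 against 5.82 to 6.34 on the other 4. Within those 4 arrays the probe sets still disagreed, with -0.39, 0.31 and 0.47 in the order given. The part of the spike-in signal in these values was not tested. With the macrophage covariate the difference on the brightest probe set was 0.37 (SE 0.34), opposite in sign to the value without it.

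Adamtsl4, a microfibril-binding protein of the lens zonule and other tissues, was the least even member. It read 6.22, 5.69 and 6.09 in WT. In Delta9 it read 4.81, 3.96 and 6.06. Delta9 replicates 1 and 2 were below every WT sample, whereas Delta9 replicate 3 lay within the WT range. The SD over 3 samples was 0.28 in WT and 1.05 in Delta9, and the difference was -1.06 (SE 0.48). The value turned on single samples: it was -1.62 without Delta9 replicate 3 and -0.57 without Delta9 replicate 2. Between the arrays of lower spike-in signal it was -0.17, and within the other 4 arrays it was -1.51.

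Adamtsl2, which binds microfibrils and a latent TGF-beta binding protein, was nearly level. It read 4.76, 4.48 and 4.50 in WT and 4.45, 4.55 and 4.53 in Delta9. All samples but WT replicate 1 lay within a narrow band. The difference was -0.07 (SE 0.13), and it had the other sign in 2 of 17 alternatives (0.01 in the 4 arrays with more spike-in signal and 0.02 without WT replicate 1).

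Adamtsl5, a smaller member that also binds microfibrils, was the one member with a higher mean in Delta9. Its brighter probe set, 1420336_at, read 4.73, 5.12 and 5.10 in WT and 5.47, 5.13 and 5.04 in Delta9, with the groups overlapping and a difference of 0.23 (SE 0.18). The dimmer one, 1438266_at, read 4.38, 4.33 and 4.48 in WT and 4.09, 4.06 and 4.39 in Delta9, a difference of -0.22 (SE 0.15). Their mean differed by 0.01, so the direction for this gene depends on the probe set taken.

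Adamts10, a microfibril-binding protease that promotes fibrillin deposition, showed the same kind of disagreement. On 1427139_at it read 7.18, 6.88 and 7.43 in WT and 6.69, 6.54 and 6.57 in Delta9. All Delta9 samples were below all WT samples, and the difference was -0.56 (SE 0.17), or 1.48-fold lower. On the dimmer 1441309_at it read 3.34, 3.65 and 4.15 in WT and 5.37, 4.49 and 4.14 in Delta9. There the groups touched at 4.14 and 4.15, and the difference was 0.96 (SE 0.34) in the opposite direction. Both differences had the same sign in the 4 arrays with more spike-in signal, at -0.54 and 1.03, as between the other pair, at -0.61 and 0.80. Averaged over both probe sets Adamts10 differed by 0.20. Which transcripts each probe set reads was not determined here.

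Papln encodes papilin, a large matrix glycoprotein of basement membranes with repeats of the same type. It was dim, at 2.21, 2.77 and 2.37 in WT and 2.34, 2.34 and 2.50 in Delta9, below 88.3% of genes by its mean. The groups overlapped and the difference was -0.06 (SE 0.14), smaller than its error. Without WT replicate 2 it was 0.10, the opposite sign.

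**Figure D2:**
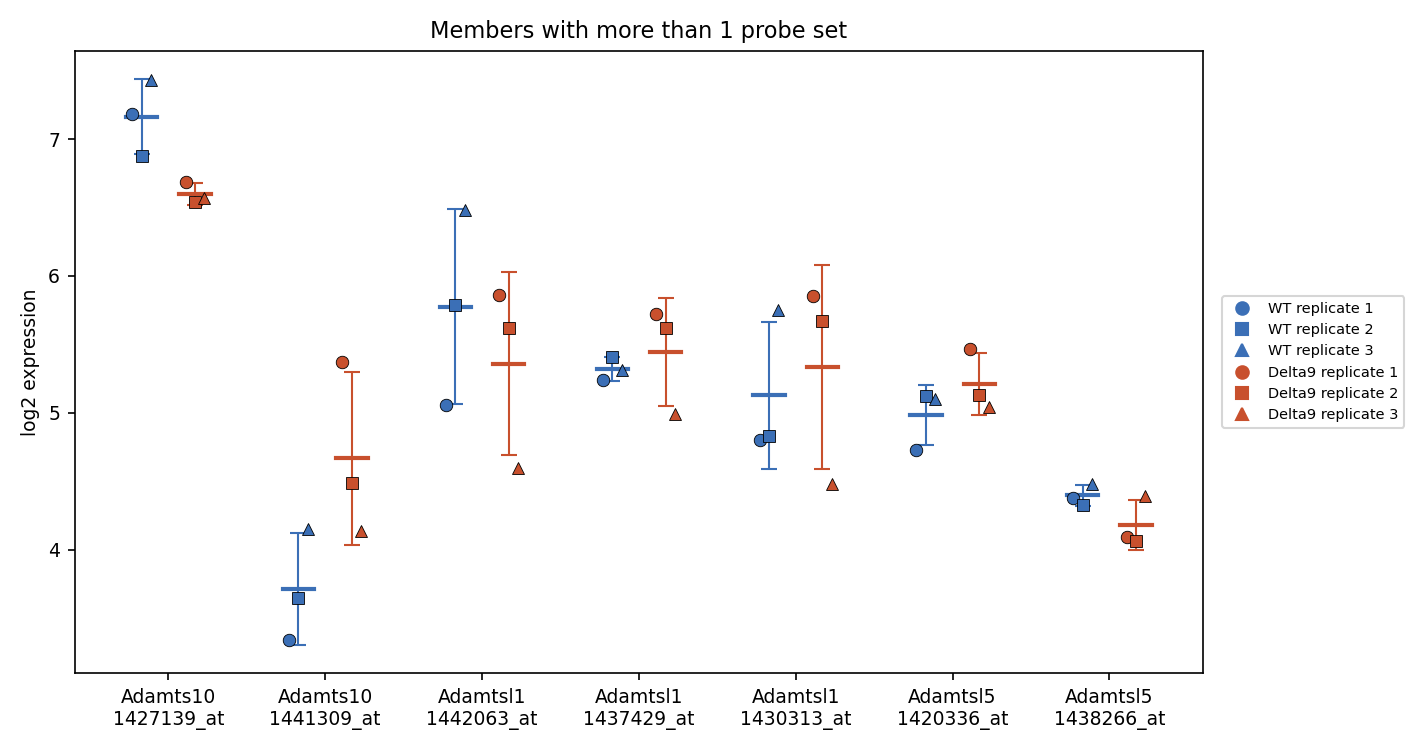
Log2 expression (vertical axis) on each array for the 7 probe sets of Adamts10, Adamtsl1 and Adamtsl5, the members with more than 1; thick lines are group means and bars are the SD of 3 samples. For Adamts10 the Delta9 points are below WT on 1427139_at and, apart from a contact at 4.14 and 4.15, above WT on 1441309_at.

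As a family, 6 of the 7 members had a lower mean in Delta9, with a median difference of -0.42, where 53.2% of all genes were lower and their median was -0.01. The groups were apart with Delta9 lower for 2 members, Adamtsl3 and Adamts10, against 9.99% of all genes, and apart with Delta9 higher for 0 members, against 7.27%. Because the contrast chose the family, nothing is read from these counts. Over the 6 arrays the values of Adamtsl3 ran most closely with those of Adamts10 (Pearson r of 0.82) and Adamtsl4 (0.70), and opposite to those of Adamtsl5 (-0.61). These correlations over 6 arrays share the group difference and are a description. The counts, the median and the correlations also rest on the probe set taken. Averaged over probe sets, Adamtsl1 differed by -0.03, Adamtsl5 by 0.01 and Adamts10 by 0.20.

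The remaining ADAMTS proteases, which carry the active enzyme domain that Adamtsl3 lacks, had small differences on balance. Of 17 listed, 14 were measured, 9 with lower and 5 with higher means in Delta9, and their median difference was -0.03. That median had no stable sign: it ran from -0.13 to 0.06 with a sample left out and was 0.14 with the macrophage covariate. None passed an adjusted p of 0.05 (limma, 0 of 14), and 1 had an unadjusted p under 0.05, where 10.6% of all genes did. That one was Adamts9, a protease of proteoglycans, which read 6.34, 6.24 and 6.90 in WT and 6.07, 6.05 and 5.18 in Delta9, a difference of -0.73 (SE 0.29, adjusted p 0.453). It was -0.43 without Delta9 replicate 3, -0.44 with the mean of its probe sets, -0.38 with array weights and -0.32 with the macrophage covariate. Adamts4 and Adamts5, the aggrecan-cutting enzymes, differed by 0.81 (SE 0.49, adjusted p 0.601) and -0.32 (SE 0.22, adjusted p 0.635). Adamts4 was 0.31 without Delta9 replicate 1. Adamts5 was -0.55 with WT replicate 2 left out, -0.20 with WT replicate 3 left out and -0.08 with array weights. Adamts6, the closest relative of Adamts10, differed by -0.13 (SE 0.46, adjusted p 0.943).

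Genes of the microfibril and elastic fibre, to which several members bind, mostly had lower means in Delta9. Of 26 listed, 21 were measured, and 17 had lower means, with a median difference of -0.30. None passed (limma, 0 of 21), while 6 lower and 1 higher had an unadjusted p under 0.05, together 33.3% of the list against 10.6% of all genes. The higher one was Emilin2, at 0.89 (SE 0.22, adjusted p 0.269). This list was written with earlier results of these data known, so its direction is no independent evidence.

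The lowest p-values of that list were those of Eln, Ltbp3 and Fbln5. Eln, elastin itself, read 10.31, 9.96 and 9.91 in WT and 8.78, 8.61 and 9.18 in Delta9. The groups were apart, with a difference of -1.20 (SE 0.19, adjusted p 0.112). Ltbp3, a latent TGF-beta binding protein, read 9.31, 9.41 and 9.90 in WT and 8.20, 8.35 and 8.54 in Delta9, a difference of -1.18 (SE 0.19, adjusted p 0.114). Fbln5, fibulin 5, which helps elastin onto microfibrils, read 9.59, 9.79 and 9.94 in WT and 8.96, 8.79 and 8.23 in Delta9, a difference of -1.11 (SE 0.21, adjusted p 0.182). With the spike-in split as a block all 3 passed, and over the 17 alternatives the adjusted p ran from 0.00636 to 0.462 for Eln, from 0.0202 to 0.443 for Ltbp3 and from 0.0171 to 0.595 for Fbln5. With the mean of each gene's probe sets, Eln differed by -0.85, Ltbp3 by -0.55 and Fbln5 by -0.58. A pair of other latent TGF-beta binding proteins had wider differences. Ltbp2 differed by -1.80 (SE 0.65, adjusted p 0.411), or by -1.03 without Delta9 replicate 3, its lowest sample. Ltbp1 differed by -1.38 (SE 0.26, adjusted p 0.183), or by -0.55 with the mean of its probe sets. In both the groups were apart. Ltbp4 went the other way, at 0.08 (SE 0.23, adjusted p 0.923, limma), with overlapping groups.

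**Figure D3:**
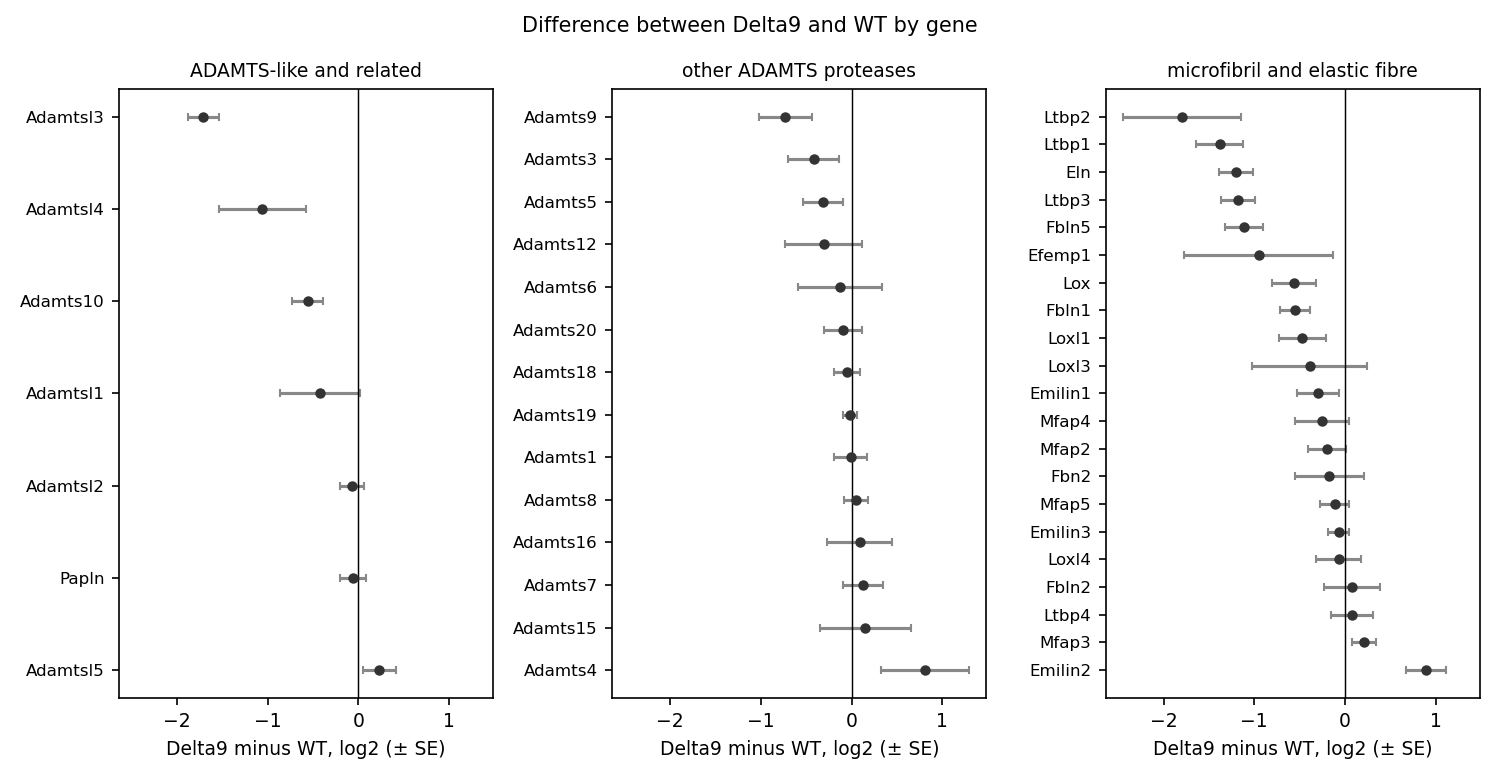
Difference of Delta9 minus WT on the log2 scale (horizontal axis, points) with its moderated SE (bars) for the 7 measured ADAMTS-like and related genes, 14 other ADAMTS proteases and 21 microfibril and elastic fibre genes. The other ADAMTS proteases run from -0.73 to 0.81 and the microfibril and elastic fibre genes from -1.80 to 0.89; Adamtsl3 is at -1.71 and Adamtsl4 at -1.06.

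Genes listed for adding sugars to thrombospondin repeats, a step that several family members need for secretion, also had lower means in Delta9. This held for 6 of 6, where 53.2% of all genes were lower, with a median of -0.23. The list takes in Dpy19l2 and Dpy19l4 by family name, and whether they act on these repeats was not examined here. It was written with earlier results of these data known, so its direction is no independent evidence. None passed (limma, 0 of 6) and 0 had an unadjusted p under 0.05, where 10.6% of all genes did. Pofut2 (-0.12, SE 0.16) and Dpy19l4 (-0.08, SE 0.22) differed by less than their error. Dpy19l2 lay near the bottom of the scale, at 1.94 in WT and 1.87 in Delta9. The lowest p were those of Dpy19l1, a mannosyltransferase of the repeats, at -0.37 (SE 0.16, adjusted p 0.478), Dpy19l3 at -0.46 (SE 0.29, adjusted p 0.611) and B3glct, which extends the repeats' fucose, at -0.35 (SE 0.22, adjusted p 0.611). With the macrophage covariate Dpy19l3 had the opposite sign, 0.09, and without WT replicate 3 it was -0.13. Dpy19l1 was -0.12 with the macrophage covariate, -0.17 with the mean of its probe sets and -0.23 without WT replicate 3. B3glct was -0.55 with Delta9 replicate 3 left out and -0.23 with WT replicate 1 left out.

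TGF-beta genes, the growth factor system that microfibrils store, had means on both sides of WT. Of 18 listed, 17 were measured, 12 with lower means, where 53.2% of all genes were lower, with a median of -0.15. None passed (limma, 0 of 17). An unadjusted p under 0.05 was found for 2, or 11.8% of the list against 10.6% of all genes. The differences ran from -1.19 to 0.48. The widest were those of Thbs1 at -1.19 (SE 0.64) and Tgfb3 at -1.15 (SE 0.51), with overlapping groups in both. Tgfb1, the ligand, read 7.67, 7.89 and 7.71 in WT and 8.29, 8.13 and 8.29 in Delta9, a difference of 0.48 (SE 0.13, adjusted p 0.293), or 0.27 with the mean of its probe sets. Smad3, a transducer of the signal, differed by -0.40 (SE 0.15, adjusted p 0.421), or -0.14 with the mean of its probe sets. Itgb8, an integrin subunit that activates latent TGF-beta, differed by -0.43 (SE 0.18, adjusted p 0.472), or -0.28 without WT replicate 3.

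The genes whose values ran most closely with Adamtsl3 over the 6 arrays were found by Pearson correlation among all named genes. The 5 highest were Ppm1l, a protein phosphatase (0.996), Fmod, the collagen-binding proteoglycan fibromodulin (0.993), Rpl41, a ribosomal protein (0.992), Cyp27b1, the enzyme that activates vitamin D (0.989), and Adcy2, an adenylate cyclase (0.989). Their differences were very unequal in size. Fmod differed by -2.16 (SE 0.12, adjusted p 0.00337), a call lost without WT replicate 2 and with the replicate block (adjusted p from 0.000182 to 0.0917 over the 17 alternatives). Adcy2 differed by -1.50 (SE 0.19, adjusted p 0.0679) and Ppm1l by -1.33 (SE 0.16, adjusted p 0.0679), or by -0.65 with the mean of its probe sets. Rpl41 differed by -0.06 (SE 0.06) near the top of the scale, and had the opposite sign with the mean of its probe sets (0.10) and without the _x_at and _s_at types (0.31). Cyp27b1 was near the bottom of the scale, at 2.35 in WT and 2.07 in Delta9. In all, 116 genes had a correlation of at least 0.95 with Adamtsl3. The likeness is dominated by the step between the groups that chose the gene, and nothing follows from it on function or control.

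**Figure D4:**
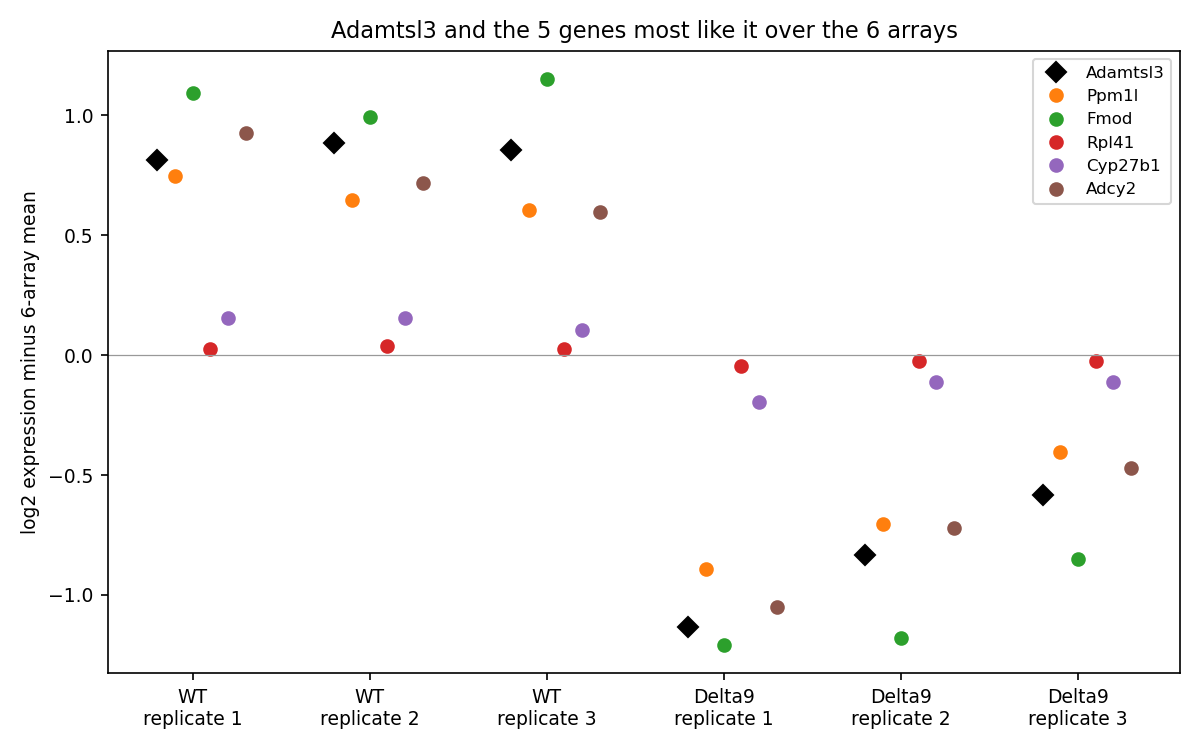
Log2 expression minus the mean over the 6 arrays (vertical axis) for Adamtsl3 (black diamonds) and the 5 genes of highest Pearson correlation with it, by sample. The group difference is -2.16 for Fmod, -1.71 for Adamtsl3, -1.50 for Adcy2 and -1.33 for Ppm1l, against -0.28 for Cyp27b1 and -0.06 for Rpl41.

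The cultures carried fibroblast markers and markers of other cells. All 12 fibroblast markers were above the median gene, up to Col3a1 at 13.14, and their mean deviation from the 6-array mean ran from -0.25 to -0.12 in Delta9 and from 0.05 to 0.28 in WT. Macrophage markers were bright as well, with 13 of 14 above the median gene, a median level of 10.3 and Lyz2, macrophage lysozyme, at 12.2. All 14 had higher means in Delta9, though none passed (limma, 0 of 14). An unadjusted p under 0.05 was found for 3, or 21.4% against 10.6% of all genes, and the groups were apart with Delta9 higher for 42.9% against 7.27%. Their mean deviations were 0.42, -0.29 and -1.78 in WT replicates 1, 2 and 3, and 0.43, 0.31 and 0.89 in Delta9. Of the endothelial markers 2 of 6 were above the median gene, and of the epithelial ones 1 of 6. Of the smooth muscle and pericyte markers it was 5 of 6, up to Acta2 at 12.4. Tendon and cartilage had 4 of 6 above it and skeletal muscle 2 of 5. Of the measured adipocyte markers 2 of 4 were above it, and of the Schwann ones 2 of 2. The marker lists were also written with earlier results of these data known. The macrophage shares are therefore no independent evidence.

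Of 6 tendon and cartilage markers 1 passed the threshold (limma). This list too was written with earlier results of these data known, so its shares are no independent evidence. An unadjusted p under 0.05 was found for 4, or 66.7% against 10.6% of all genes. All 6 had lower means in Delta9, and the groups were apart with Delta9 lower for 83.3% against 9.99% of all genes. The exception was Acan, aggrecan, which differed by -0.14 (SE 0.17, adjusted p 0.814) and by 0.02 with the macrophage covariate. The mean deviation of the 6 markers was 0.49, 0.48 and 0.76 in WT, against -0.80, -0.47 and -0.46 in Delta9. Mkx, a transcription factor of tendon, fell past the threshold with a difference of -2.77 (SE 0.26, adjusted p 0.0307). That call was lost in 7 of the 17 alternatives, among them leaving out Delta9 replicate 1 or any 1 of the WT samples, with an adjusted p from 0.0106 to 0.283. The smooth muscle and pericyte markers were lowest in Delta9 replicate 3, at -1.02, the sample with the lowest Adamtsl1 and the highest Delta9 value of Adamtsl4. The RNA quality of the arrays was not even. The 3′ minus 5′ probe set difference of actin, which grows as RNA is degraded, was 0.68, 0.51 and 0.84 in Delta9 and 0.86, 0.82 and 1.41 in WT, and that of Gapdh was 0.25, 0.23 and 0.57 in Delta9 and 0.57, 0.49 and 0.51 in WT. Delta9 replicates 1 and 2 were below every WT sample on both, and Delta9 replicate 3 was not. The part of the cell type markers and of RNA quality in the members' values was not tested.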

How the data were processed

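Each of the 6 samples has a column of deposited log2 probe set values for 45101 probe sets. Per the labels' protocols, Trizol RNA was labelled with a one-cycle biotin kit; how the authors summarised and scaled the arrays is not given in the sources used here. That the scale is log2 was taken from the span of the values. Array medians lay between 3.36 and 3.43. There are no detection calls, and 3 arrays per group limit the precision.

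After 64 control probe sets were left out, 34945 probe sets had 1 symbol in the platform annotation, 932 had several and 9160 are unnamed here; 34741 matched a RefSeq table of assembly GRCm38.p6, used for names and gene order only. Delta9 was compared with WT across all 18193 genes with limma 3.58.1 (R 4.3.3; lmFit, eBayes with variance trend) and Benjamini-Hochberg adjustment, threshold 0.05, after a check on simulated data. SE is the moderated standard error. Differences of single probe sets came from the same model over all 45037 probe sets. Figures used matplotlib 3.10.9.

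The members, gene lists and alternatives were chosen with earlier results of these data known. Named genes were the members, Lmna, the list genes past the threshold, the 3 of lowest p in each pathway list and the 5 most like Adamtsl3. Adamts6, Col3a1 and Lyz2 were named as the nearest relative or the brightest marker. The neighbours of Adamtsl3 were added after the values were seen, as were Ltbp1, Ltbp2, Ltbp4, Emilin2, Pofut2, Dpy19l2, Dpy19l4, Thbs1, Tgfb3, Acta2 and Acan. The labels state no pairing, and whether the replicate numbers pair the samples is not known.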

Additional observations from a re-analysis of the deposited data

How the results depend on the processing

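The 17 alternatives moved the count of genes past the threshold, 11, more than the members' differences. It was 139 with array weights, 149 with the spike-in split as a block, 61 in the 4 arrays with more spike-in signal, 3 with the macrophage covariate, and from 1 (without WT replicate 2) to 81 (without Delta9 replicate 3) with a sample left out. With the replicate number as a block it was 0 (limma). Deviations of same-numbered samples correlated at -0.40, 0.17 and -0.43. With 3 arrays per group these values cannot decide whether the numbers pair the samples. The microfibril and elastic fibre list had 3 calls with array weights and 3 with the spike-in split as a block, 2 within the 4 arrays and 0 to 1 with a sample left out. With a sample left out its median ran from -0.58 to -0.11 and that of the TGF-beta list from -0.32 to -0.11. The glycosylation median was -0.35 without the dimmest 25% of genes. The values of Adamtsl1, Adamtsl2, Adamts10 and Papln, all given above, each changed sign in at least 1 alternative, as did the median of the other ADAMTS proteases (0.14 with the macrophage covariate). Among the other named genes, opposite in sign to the reported value were Acan (0.02) and Dpy19l3 (0.09) with the macrophage covariate, and Rpl41 with the mean of its probe sets (0.10) and without the _x_at and _s_at types (0.31). The Adamtsl3 difference kept its sign in all 17, from -1.86 to -1.57, though the changes of probe set, variance model, block or gene filter could not move it. For Papln array weights gave -0.28, and leaving out the dimmest 25% removed it. The causes were not tested.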

Other observations

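The genes next to Adamtsl3 on chromosome 7 had smaller differences than Adamtsl3 itself. Of the 10 protein-coding neighbours, 5 on each side in the RefSeq order, 9 were measured, and none passed the threshold (limma, 0 of 9, lowest adjusted p 0.402; 2 at an unadjusted p under 0.05, where 10.6% of all genes were). The nearest on either side, Sh3gl3 and Saxo2, differed by 0.09 (SE 0.22) and 0.03 (SE 0.13). For Btbd1 and Hdgfl3, further along on the Sh3gl3 side, all Delta9 samples were below all WT samples, as for 9.99% of all genes. Their differences were -0.32 (SE 0.11) and -0.33 (SE 0.14), each with an unadjusted p under 0.05 (limma, 0.0249 and 0.0493). Tm6sf1 had the widest difference of the 9, 0.88 (SE 0.38), with overlapping groups. Adamts17, also on chromosome 7, was not analysed here.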
